A study of Mus musculus with 22 samples.

Results

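The 33 genes described here are used as markers of the B cell lineage. Which cells their reads came from was not tested. Immunoglobulin V genes were left out. The 33 were taken by name from a list that follows a B cell from its first steps in the marrow to antibody secretion. They make up 33 of the 25471 genes counted, and all 33 passed the filter on low counts. The list holds 7 progenitor genes (Vpreb1, Vpreb3, Igll1, Rag1, Rag2, Dntt and Il7r), 12 genes used through most of the lineage, called core genes here (Cd79a, Cd79b, Pax5, Ebf1, Blnk, Blk, Btk, Cd72, Cd37, Pou2af1, Spib and Ighm), 9 mature B genes (Ms4a1, Cd22, Fcrla, Fcer2a, Cr2, Ighd, Bank1, Tnfrsf13c and Cxcr5) and 5 genes of antibody chains and their secretion (Igkc, Iglc1, Iglc2, Jchain and Mzb1).

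B cells are made in bone marrow. Progenitors cut and join their immunoglobulin genes with the Rag1 and Rag2 recombinase, test the new heavy chain with a surrogate light chain made of Vpreb1 and Igll1, and then leave for blood and spleen as cells that carry IgM and IgD, while plasma cells, the antibody factories, return to the marrow and stay there. The middle part of an ulna holds marrow together with bone, and the dissected piece also carries muscle.

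Bulk RNA was sequenced from both ulnae of 11 mice, which gave 22 libraries in 4 groups: wildtype non-loaded and wildtype loaded ulnae of 7 mice (685, 686, 687, 690, 692, 694 and 699), and CKO non-loaded and CKO loaded ulnae of 4 mice (688, 691, 693 and 698). The right limb was mechanically loaded and the left limb of the same animal was not, so that each mouse was its own control. CKO stands for a conditional knockout of Tlr4, the Toll-like receptor 4 gene, in the labels, and the series title speaks of its signalling in osteoblasts. What drove the deletion, how old the mice were and of which sex, how the limb was loaded and when bone was taken are not stated in the labels.

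Library totals lay between 21999891 and 42833729 counts. Tlr4 was measured at 24.9 to 42.2 CPM (read counts relative to the library's total, scaled between libraries) in wildtype and 24.9 to 33.8 CPM in CKO ulnae, so its level in whole bone did not separate the genotypes. The sources used here do not say which exons were deleted or in which share of the cells. Ltbp2, which is no B lineage gene, did separate most libraries, with 26.5 to 73.4 CPM in 13 wildtype libraries and 205 to 344 CPM in 7 CKO libraries. The library labelled wildtype loaded of mouse 686 had 380 CPM of Ltbp2 and the library labelled CKO loaded of mouse 688 had 38.3 CPM, each within or beyond the range of the other genotype, so the medians of each comparison are given with and without these 2 mice. Bone genes were high throughout (Col1a1 1247 to 19535 CPM and Sost 237 to 725 CPM).

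Printed here are the promoters of 4 members, each of which holds the E-box described below. They are the 250 bases before the start site in RefSeq on GRCm38.p6, 5′ to 3′ on the gene's strand, and capitals mark the E-box CAGGTG or its reverse complement CACCTG, the letters bound by E proteins such as E2A. They are shown because Cd79a marks the whole lineage in each comparison, Vpreb1 and Igll1 encode the 2 surrogate light chain proteins, and Rag1 is set against Ighd.
Cd79a: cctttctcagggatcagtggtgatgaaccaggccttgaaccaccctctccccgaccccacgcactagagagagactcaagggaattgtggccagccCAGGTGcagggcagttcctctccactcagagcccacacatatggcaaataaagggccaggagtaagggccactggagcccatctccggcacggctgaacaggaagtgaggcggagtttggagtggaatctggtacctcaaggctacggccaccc
Vpreb1: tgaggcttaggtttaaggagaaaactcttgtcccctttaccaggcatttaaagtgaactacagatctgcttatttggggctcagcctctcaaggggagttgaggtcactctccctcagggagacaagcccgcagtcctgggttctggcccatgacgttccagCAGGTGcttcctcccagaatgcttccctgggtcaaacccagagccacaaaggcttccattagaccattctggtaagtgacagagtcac
Igll1: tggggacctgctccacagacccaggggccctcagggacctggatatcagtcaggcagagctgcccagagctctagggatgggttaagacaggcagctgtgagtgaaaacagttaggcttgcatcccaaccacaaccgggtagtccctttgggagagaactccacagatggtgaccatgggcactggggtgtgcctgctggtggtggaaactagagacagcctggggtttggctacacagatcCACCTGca
Rag1: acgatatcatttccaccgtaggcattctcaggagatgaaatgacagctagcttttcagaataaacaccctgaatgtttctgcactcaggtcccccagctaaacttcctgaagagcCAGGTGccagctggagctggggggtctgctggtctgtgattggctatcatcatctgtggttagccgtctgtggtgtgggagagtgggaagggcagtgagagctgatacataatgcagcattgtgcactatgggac
In the order shown these windows are Cd79a at chr7:24897247-24897496 on the plus strand and, on the minus strand, Vpreb1 at chr16:16869256-16869505, Igll1 at chr16:16863986-16864235 and Rag1 at chr2:101649533-101649782. Over the 300 bases around a start site (250 before, 50 after, both strands searched), 13 of 26 promoters of the 23 members found in the table held CAGGTG or CACCTG, or 50%, against 20.2% of all 32851 mouse promoters. The octamer ATGCAAAT, read by octamer factors with their partner Pou2af1, was in 2 of 26 (7.69% against 1.74% of all), and the Ikaros core TGGGAA in 7 of 26 (26.9% against 25.6%). The EBF core CCCNNGGG was in 4 of 26 (15.4% against 13.7%). These are matches of letters only, and 3 of the 4 promoters printed belong to progenitor genes, so the sequences do not stand for the whole list. Nor do they stand for the progenitor genes, since Rag2, Dntt, Il7r and Vpreb3 had no match to the E-box. Core genes such as Pax5, Ebf1 and Spib had none either.

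Measured per length of exon, which allows levels of different genes to be compared, the Igkc and Ighm antibody chain transcripts stood far above the rest. In wildtype non-loaded ulnae Igkc, the constant part of the kappa light chain (chr6:70726435-70726966), was at 275 ± 123 RPKM (CPM per kilobase of exon; SD, n = 7), and Ighm, the constant part of the IgM heavy chain, at 105 ± 29.1 RPKM. Iglc1, of the lambda light chain, came next at 31.8 ± 22.5 RPKM. Cd79b and Cd79a, the paired proteins that carry the signal of the B cell receptor, were at 26.6 ± 10.4 and 24.4 ± 9.52 RPKM, and the differences among these 3 genes were smaller than their spread. Iglc2 was at 15.1 ± 5.04 RPKM. Rag2 and Cr2, the complement receptor of mature B cells, were lowest at 0.750 ± 0.40 and 0.818 ± 0.523 RPKM. Even the lowest value of any member in any library, that of Vpreb1 in mouse 692, rested on 23 counts. Together the 33 genes took 0.0977 ± 0.0333% of counts in wildtype non-loaded, 0.107 ± 0.0374% in wildtype loaded (n = 7 each), then 0.153 ± 0.0606% in the non-loaded and 0.0849 ± 0.0239% in the loaded ulnae of CKO mice (n = 4 each). In bulk RNA, fewer B cells and less RNA per cell cannot be told apart.

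**Figure D1:**
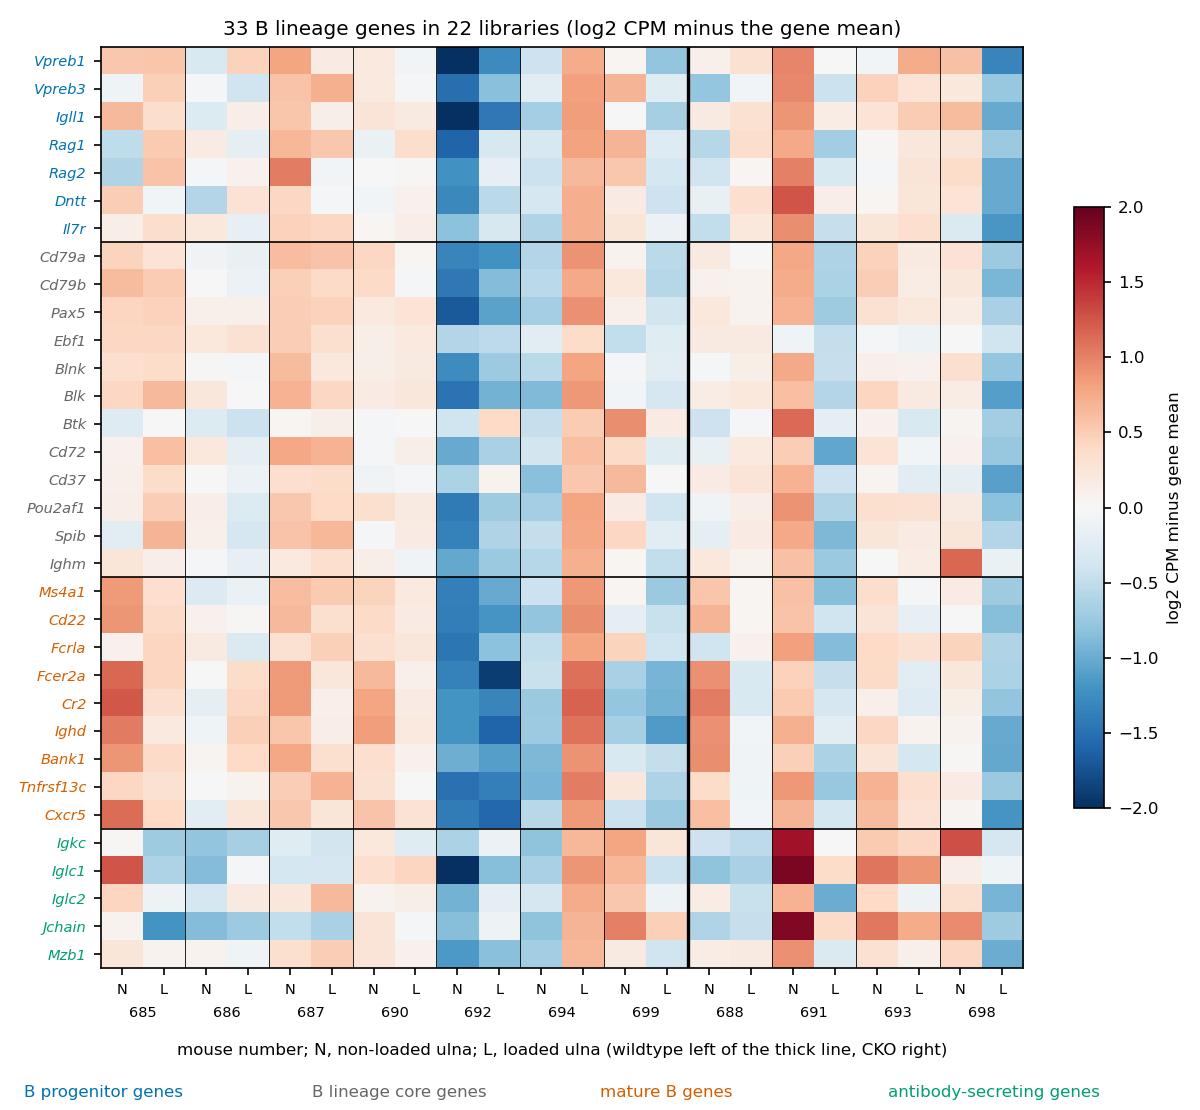
Each row is a B lineage gene, each column a library (N, non-loaded; L, loaded ulna; mice in pairs, wildtype left and CKO right of the thick line), and colour is log2 CPM minus the gene's mean over 22 libraries. Mouse 692 is low in nearly all rows, mouse 694 is low in the non-loaded and high in the loaded ulna, and mice 691 and 698 are the other way round.

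A single animal stood apart across the lineage. Wildtype mouse 692 had the lowest mean of both limbs among 11 mice for 28 of the 33 genes: 6 of 7 progenitor, 10 of 12 core, 9 of 9 mature and 3 of 5 antibody genes. Its Vpreb1 level was 0.904 CPM in the non-loaded and 1.56 CPM in the loaded ulna, against 1.5 to 7.60 CPM in the other 20 libraries. Its Ighd, the IgD heavy chain of mature B cells, was at 9.20 and 6.89 CPM, against 9.61 to 44.4 CPM elsewhere. Btk was not lowest there, with 18.5 and 32.3 CPM beside a median of 24.4 CPM over all libraries. Igkc was not lowest either, with 101 and 144 CPM beside a median of 138 CPM. Its mean of both limbs, 6.91 in log2 CPM, was above only those of mice 686 (6.56) and 688 (6.82). The neutrophil score of this mouse, the mean of 12 neutrophil genes in log2 CPM around each gene's mean, was 0.25 and 0.93, above that of most libraries, so not all marrow genes were low together. The highest mean belonged to mouse 687 for 16 genes, to mouse 685 for 10 and to mouse 691 for 5.

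For loading in wildtype mice the fitted values lay between -0.10 and 0.28 and were above 0 for 25 of 33 genes, beside 47.7% of all genes tested. By role these were 7 of 7 progenitor, 12 of 12 core, 4 of 9 mature and 2 of 5 antibody genes. That direction rested on mouse 694, without which 4 members were above 0 and 29 below. Cd79a stood at 35.6 ± 13.9 CPM in non-loaded ulnae (lowest 13.6, median 35.8, highest 52.3) and 37.2 ± 16.7 CPM in loaded ulnae (lowest 14.7, median 35.1, highest 64.1; SD, n = 7 each). The 2 groups covered each other almost wholly, and the fitted log2 fold change, loaded minus non-loaded, was 0.06 ± 0.29 (SE; adjusted p = 1.0, edgeR). None of the 33 genes was called at an adjusted p under 0.05, beside 0.00532% of the 18793 genes tested (1 gene), and none reached an unadjusted p under 0.05, beside 2.34% of all genes. The 6 members with the smallest p-values were Spib, a transcription factor of B and plasmacytoid dendritic cells, at 0.28 ± 0.27, Iglc2 at 0.21 ± 0.21, Rag1 at 0.26 ± 0.30, Cd37 at 0.18 ± 0.21, Pax5, the factor that holds cells in the B fate, at 0.23 ± 0.29, and the kinase Blk at 0.21 ± 0.30. The medians were 0.11 for progenitor, 0.14 for core and 0.00 for both mature and antibody genes, against -0.01 over all genes tested. Without mice 686 and 688 they were 0.08, 0.18, -0.03 and -0.02.

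Single mice differed widely around these medians. In mouse 694 all 33 genes were higher in the loaded ulna, with a median limb difference of 1.37 in log2, and Cd79a was at 64.1 against 22.8 CPM. In mouse 699 the order was opposite: 32 genes were lower in the loaded ulna, median -0.58, and Cd79a was at 23.5 against 35.8 CPM. Mouse 692 had 28 genes higher, while in mice 685, 686, 687 and 690 between 17 and 23 genes were lower and the medians lay between -0.13 and 0.00. No gene had 1 direction in 7 of 7 wildtype mice, beside 0.623% of all genes lower and 0.628% higher in all 7. Without mouse 686 none had it in 6 of 6 either (1.31% lower and 1.14% higher over all genes). Without mouse 694 the medians turned to -0.09 (progenitor) and -0.04 (core), with -0.27 for mature and -0.28 for antibody genes. Without mouse 687 the progenitor median was 0.24, and without mouse 699 the progenitor and core medians were 0.27 and 0.25.

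**Figure D2:**
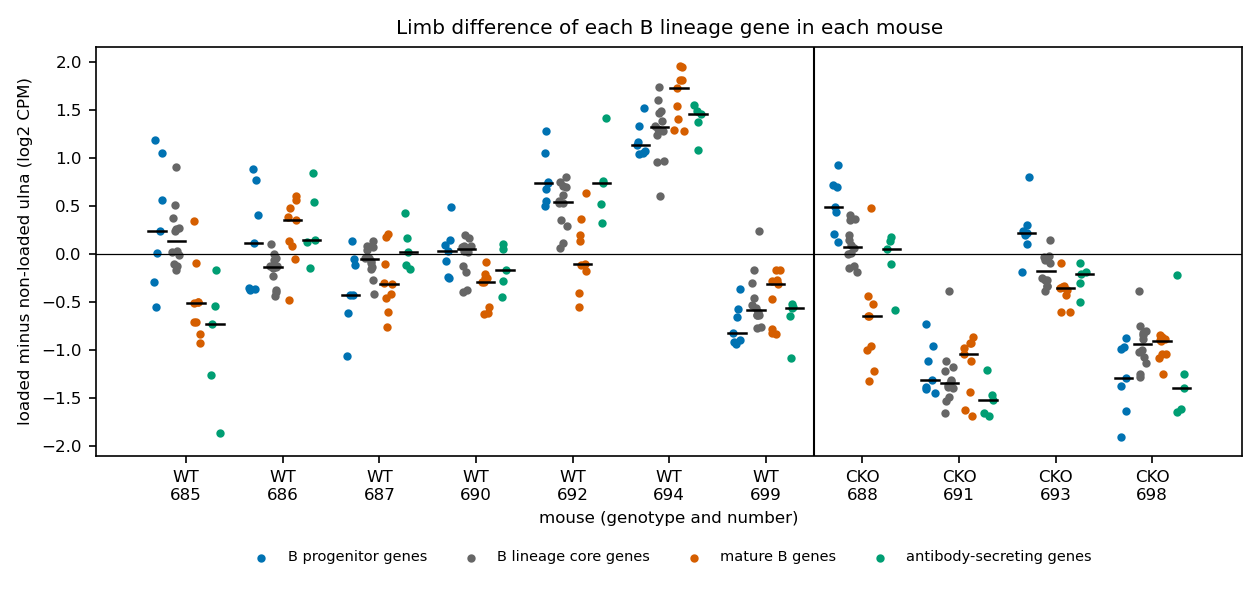
Each point is the loaded minus non-loaded difference of 1 gene in 1 mouse (log2 CPM), coloured by role, with a black bar at the median of each role. Progenitor and mature genes part in mice 685, 688, 692 and 693, and all 33 genes lie on 1 side of 0 in mice 691, 694 and 698.

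In CKO mice all 33 fitted values were below 0, yet none was called. Cd79a was at 38.6, 58.4, 46.8 and 41.6 CPM in the non-loaded ulnae of mice 688, 691, 693 and 698, and at 33.8, 22.3, 38.8 and 20.5 CPM in their loaded ulnae. It was lower in the loaded limb of each mouse, by 0.19, 1.39, 0.27 and 1.02 in log2 in that order of mice, with 1 value of overlap between the groups, and the fitted log2 fold change was -0.69 ± 0.38 (adjusted p = 0.739). No member passed an adjusted p under 0.05, beside 0.016% of all genes tested (3 genes), and 4 members (Iglc2, Igkc, Bank1 and Ighm) had an unadjusted p under 0.05, beside 3.6% of all genes. With the mouse as a block, which pairs the limbs, 13 members had one, beside 5.23% of all genes, and none was called. The medians were -0.43 for progenitor, -0.56 for core, -0.80 for mature and -0.94 for antibody genes, against -0.01 over all genes. Without mice 686 and 688 they were -0.70, -0.80, -0.79 and -1.07, and without mouse 691 they were -0.10, -0.27, -0.65 and -0.62. Leaving out mouse 688, 693 or 698 moved the progenitor median to -0.69, -0.69 or -0.27.

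Iglc2, a lambda light chain constant gene, had the smallest p of the list. Its level was 10.1, 14.7, 12.1 and 11.4 CPM in non-loaded and 6.67, 4.53, 8.49 and 4.76 CPM in loaded ulnae of mice 688, 691, 693 and 698. The groups did not overlap, and the log2 fold change was -0.99 ± 0.28 (adjusted p = 0.739). Its exons are 95.4% identical to those of Iglc3 over 452 aligned bases, so reads could be split between them, and with Iglc1, Iglc2 and Iglc3 summed the value was -0.72. Igkc, whose reads come from both B and plasma cells, was at 118, 498, 224 and 380 CPM in non-loaded and 109, 158, 208 and 124 CPM in loaded ulnae, a log2 fold change of -1.03 ± 0.40. Mice 691 and 698 carried that difference, since in mice 688 and 693 the 2 limbs were within 0.11 of each other in log2. Bank1, a scaffold protein of B cell receptor signalling, was at 32.2, 23.5, 20.1 and 17.0 CPM against 16.0, 10.8, 13.2 and 8.23 CPM, lower in every mouse without overlap of the groups, with -0.95 ± 0.40. Ighm was at -0.68 ± 0.31, Btk, the kinase downstream of the receptor, at -0.62 ± 0.30, and Mzb1, a chaperone of antibody assembly, at -0.67 ± 0.33, each with an adjusted p of 0.739.

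Most genes with 1 direction in all CKO mice were mature B genes. Of the 33 genes, 13 were lower in the loaded ulna of 4 of 4 mice, beside 5.89% of all genes tested (5.06% were higher in all 4, and no member was): 0 of 7 progenitor, 3 of 12 core (Cd79a, Cd79b and Pax5), 8 of 9 mature (all but Fcrla) and 2 of 5 antibody genes (Igkc and Iglc2). Without mouse 688 the count was 26 of 33 in 3 of 3 mice, beside 27.7% of all genes, with 1 progenitor, 11 core, 9 mature and 5 antibody genes. In 6 of the 33 (Ms4a1, Fcer2a, Cr2, Ighd, Bank1 and Iglc2) all 4 loaded libraries lay below all 4 non-loaded ones, beside 1.13% of all genes. Ms4a1, which encodes the CD20 surface protein, was at 29.4, 30.0, 25.5 and 22.6 CPM in non-loaded and 20.6, 11, 19.5 and 12.2 CPM in loaded ulnae of the 4 mice. Members are read from the same libraries and are not independent of each other, so these counts describe 4 mice and are no test.

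Progenitor genes had no shared direction over the 4 CKO mice. Vpreb1 was at 4.12, 7.60, 3.70 and 5.83 CPM in non-loaded and 4.76, 3.88, 6.47 and 1.5 CPM in loaded ulnae of mice 688, 691, 693 and 698, and its partner Igll1 at 5.86, 9.55, 6.24 and 8.03 CPM against 6.38, 5.72, 7.39 and 2.53 CPM. Rag1 was at 19.3, 48.8, 29.2 and 34.3 CPM against 36.7, 17.9, 33.5 and 17.2 CPM. All 3 were higher in the loaded ulna of mice 688 and 693 and lower in that of mice 691 and 698, so the groups overlapped. Reads of Vpreb1 could include some of Top3b, which overlaps it on the opposite strand (mean 34.9 CPM), since the strand used in counting is not given in the sources used here. In wildtype mice Vpreb1 spanned 0.904 to 6.68 CPM (median 3.97) in non-loaded and 1.56 to 6.46 CPM (median 4.32) in loaded ulnae, and Rag1 9.47 to 46.1 CPM (median 26.2) and 23.1 to 50.6 CPM (median 36.7).

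Muscle and marrow markers also shifted for loading in CKO mice, muscle genes in the direction opposite to the B lineage genes. All 12 muscle genes had fitted values above 0 in the loaded CKO ulnae (median 0.56, none called), and their share of counts was 9.06 ± 4.75% in non-loaded and 12.5 ± 1.90% in loaded CKO ulnae. That share was lowest, 2.73%, in the non-loaded ulna of mouse 691, the library with the largest share of B lineage counts, 0.233%, and highest, 15.2%, in the loaded ulna of mouse 698, which had 0.0578%. The covariates used were a muscle score and a marrow score, the latter taken over the erythroid and neutrophil genes together. With them the medians were 0.07 for progenitor, -0.19 for core, -0.44 for mature and -0.32 for antibody genes, with none called. All 12 erythroid, all 12 neutrophil and all 16 T and NK cell genes were below 0 in the same comparison (medians -0.49, -0.58 and -0.71, none called). Mouse by mouse the match was partial. The limb difference of the mature score had the sign of the erythroid score in 5 of 11 mice. For the progenitor, core and antibody scores it was 8, 9 and 7 of 11. These counts were the same against the neutrophil score. The part of these markers in the B lineage values was not tested further.

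The difference between genotypes in the response to loading, CKO minus wildtype, was below 0 for 33 of 33 genes, with medians of -0.59 (progenitor), -0.73 (core), -0.77 (mature) and -0.93 (antibody genes) against 0.00 over all genes. No gene in the table was called (0% of 18793), and only Iglc2, at -1.19 ± 0.35, had an unadjusted p under 0.05 among the members, beside 2.6% of all genes. With the mouse as a block 10 members had one, beside 3.98% of all genes, and none was called. With the 3 lambda genes summed its value was -0.77. Next by p came Ighm at -0.80 ± 0.39, Igkc at -1.03 ± 0.50, Bank1 at -1.0 ± 0.50, Btk at -0.74 ± 0.38 and Cd37, a tetraspanin of B cells, at -0.69 ± 0.36, each with an adjusted p of 0.697, and Cd79a was at -0.75 ± 0.48 (adjusted p = 0.697). With the same covariates the medians were -0.12, -0.38, -0.65 and -0.39 in that order of roles, and without mice 686 and 688 they were -0.88, -0.99, -0.77 and -1.04. Without mouse 691 they were -0.22, -0.43, -0.71 and -0.61, and without mouse 694 the mature median was -0.49.

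**Figure D3:**
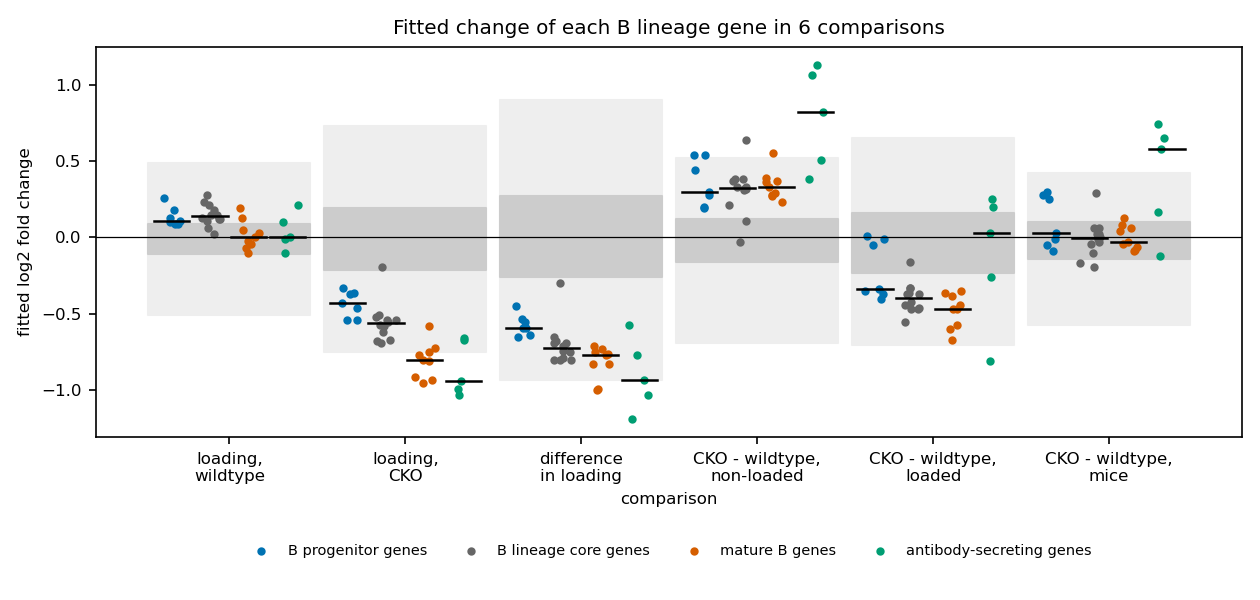
Points are fitted log2 fold changes of the 33 genes in each comparison, coloured by role, with black bars at role medians; dark and light grey bands hold the middle 50% and 95% of all genes tested. Members lie near 0 for loading in wildtype mice, below 0 in CKO mice, and antibody genes lie highest where CKO is set against wildtype in non-loaded ulnae.

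In several mice progenitor and mature genes differed between the limbs in opposite directions. In mouse 688, 7 of 7 progenitor genes were higher and 8 of 9 mature genes lower in the loaded ulna, and in mouse 693 these counts were 6 of 7 and 9 of 9. In wildtype mouse 685 they were 5 of 7 and 8 of 9. In mouse 690 they were 4 of 7 and 9 of 9, but the progenitor score differed by only 0.03. In mouse 692 they were 7 of 7 and 5 of 9, but the mature score differed by only -0.01. Mice 686, 687 and 699 had both scores in 1 direction (progenitor 0.15, -0.37 and -0.74, mature 0.23, -0.29 and -0.46). Of all genes tested, 45.6% to 54.0% were lower in the loaded ulna, depending on the mouse. The 3 mice with the widest shift of the whole list, 691, 694 and 698, showed no such parting. By their Ltbp2 levels the loaded libraries of mice 686 and 688 fell with the other genotype, so the pairing of limbs in mouse 688 is uncertain.

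The ratio of Rag1, found in recombining progenitors, to Ighd, found in mature cells, puts this in 1 number per library. It was 0.467 in the non-loaded and 1.73 in the loaded ulna of mouse 685, 0.488 and 1.81 in mouse 688, 0.697 and 1.52 in mouse 690, and 1.03 and 3.35 in mouse 692. The rise was smaller in mouse 687 (1.48 and 1.82), mouse 693 (1.04 and 1.52) and mouse 698 (1.55 and 1.66). The ratio went the other way in mouse 686 (1.63 and 0.856), mouse 691 (1.41 and 0.984), mouse 694 (1.82 and 1.14) and mouse 699 (3.46 and 2.51). Rag1 and Ighd had opposite limb differences in 6 of 11 mice, while Vpreb1 and Dntt each had them with Ighd in 4 of 11. Cd79a and Cd79b, partners in 1 complex, had them in 0 of 11, and Igll1 and Vpreb1 in 1 of 11. Over 11 mice the spread of the log2 ratio was 0.783 between limbs and 0.499 between mouse means. The first is the SD of a single limb around its mouse's mean, with any shift common to the loaded limbs included. The second is the SD of averages of 2 limbs, so the 2 values are not on the same scale. Mice 686 and 688, whose limb pairing is uncertain, are among these 11. Exons of Rag1 overlap those of B230118H07Rik (mean 10.5 CPM) on the same strand, so some reads could belong to either.

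**Figure D4:**
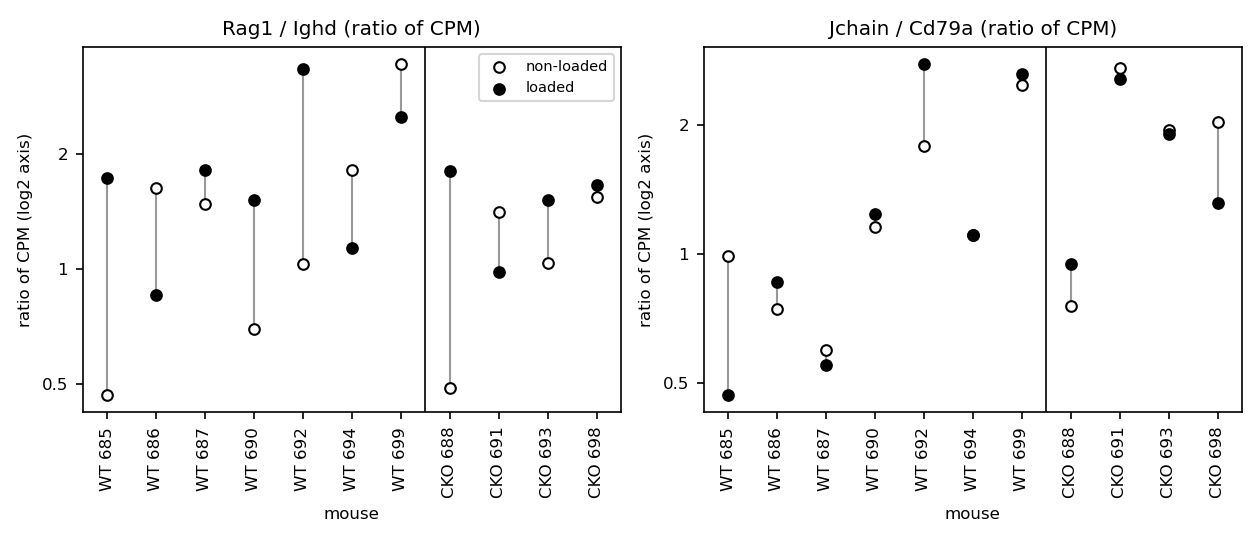
Ratio of CPM values in each ulna (open, non-loaded; filled, loaded; log2 axis) for Rag1 over Ighd, left, and Jchain over Cd79a, right, with the limbs of a mouse joined by a line. Rag1 over Ighd spans 0.467 to 3.46 with long lines within mice, while Jchain over Cd79a spans 0.468 to 2.79 with short lines in most mice.

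The progenitor and mature scores lay closest to different marker scores. The limb difference of the mature score lay close to that of a score of 16 T and NK cell genes, which share no gene with the list: in mice 685, 688, 691, 694 and 698 the mature score differed by -0.50, -0.70, -1.18, 1.64 and -0.98 and the T and NK score by -0.61, -0.54, -1.01, 1.37 and -0.87. Over 11 mice the gap between the 2 averaged 0.15 and was at most 0.27 in log2. The gap between the progenitor and the T and NK scores averaged 0.46 and reached 1.05. That between the mature and the neutrophil scores averaged 0.51 and reached 1.13. Both were largest in mouse 688, whose limb pairing is uncertain. Progenitor genes lay nearest to neutrophil genes, with a mean gap of 0.29, and to cell cycle genes, with 0.36. These pairs were picked from 28 after their values were seen, all scores come from the same libraries, and they are given as a description.

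Between genotypes, the members with the smallest p-values in non-loaded ulnae were the antibody genes Igkc and Jchain, followed by Ighm. Igkc was at 118, 498, 224 and 380 CPM in CKO mice 688, 691, 693 and 698 (305 ± 168 CPM) against a lowest of 89.3, a median of 132 and a highest of 271 CPM in wildtype mice (146 ± 65.3 CPM). Mice 691 and 698 lay above all wildtype mice and mice 688 and 693 within their range, and the log2 fold change, CKO minus wildtype, was 1.06 ± 0.35 (adjusted p = 0.976). Jchain, which joins IgM and IgA into polymers, was at 29.2, 160, 91.5 and 84.8 CPM (91.3 ± 53.4 CPM) against a lowest of 24.1, a median of 31.3 and a highest of 89.1 CPM (41.9 ± 23.7 CPM), a log2 fold change of 1.13 ± 0.43. Ighm was at 243, 316, 212 and 467 CPM against 103, 217 and 249 CPM as lowest, median and highest, or 0.64 ± 0.27, with mice 691 and 698 above all wildtype mice. No member was called, beside 0% of all genes, none had all CKO libraries above all wildtype ones, beside 0.0639% of all genes, and these 3 were the members with an unadjusted p under 0.05, beside 3.04% of all genes. Mzb1 at 0.51 ± 0.29, Iglc1 at 0.82 ± 0.51 and Dntt, the enzyme that adds bases at immunoglobulin joints, at 0.54 ± 0.32 came next, and Cd79a was at 0.38 ± 0.33, all with an adjusted p of 0.976.

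The medians in non-loaded ulnae were 0.30 for progenitor, 0.33 for core, 0.33 for mature and 0.82 for antibody genes, against 0.00 over all genes, and 32 of 33 members were above 0. Without mouse 691 the antibody median was 0.32 and the progenitor median -0.02, the core median 0.14, with Igkc at 0.71 and Jchain at 0.70. Without wildtype mouse 692 the progenitor, core and mature medians were 0.16, 0.19 and 0.20, and without wildtype mouse 694 the mature median was 0.21. The progenitor median was 0.54 without mouse 687 and 0.50 without mouse 688. The non-loaded ulna of mouse 691 is the one with the lowest muscle share. All 12 bone genes were below 0 in this comparison (median -0.67), all 14 cell cycle genes (median 0.47) and all 12 neutrophil genes (0.16) were above 0, as were 11 of 12 erythroid genes (0.52), with none called, and their part in the B lineage values was not tested. With the muscle and marrow covariates the medians were 0.11 for progenitor, 0.29 for core, 0.51 for mature and 0.69 for antibody genes. Without mice 686 and 688 the medians were 0.48, 0.42, 0.18 and 1.0.

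In loaded ulnae 29 of 33 members were below 0, with medians of -0.34, -0.40 and -0.47 for progenitor, core and mature genes and 0.03 for antibody genes, against -0.04 over all genes. None was called (0% of all genes), and 1, Iglc2 at -0.81 ± 0.26 (adjusted p = 0.601), had an unadjusted p under 0.05, beside 6.81% of all genes. No member had all CKO libraries below all wildtype ones, beside 0.506% of all genes. With the lambda genes summed its value was -0.18. Bank1 at -0.67 ± 0.36, Cd37 at -0.47 ± 0.26, Cd72, an inhibitory receptor, at -0.55 ± 0.30, Ebf1, which opens the B cell programme, at -0.33 ± 0.21 and Btk at -0.42 ± 0.27 followed, and Cd79a was at -0.37 ± 0.34. Muscle genes were above 0 in 12 of 12 (median 0.66, none called). With the marker covariates the medians were -0.04, -0.13, -0.14 and 0.41, and without mice 686 and 688 they were -0.42, -0.54, -0.55 and 0.10. The progenitor median was -0.12 without mouse 698, -0.22 without mouse 694 and -0.54 without mouse 693. The core median was -0.26 without mouse 698, and the mature median -0.28 without mouse 694.

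Summing both limbs of a mouse gave a comparison of 4 CKO with 7 wildtype mice over 19962 genes, in which the medians were 0.03 for progenitor, 0.00 for core and -0.03 for mature genes, against -0.01 over all genes. Antibody genes had a median of 0.58, led by Jchain at 0.74 ± 0.34 and Igkc at 0.65 ± 0.27 (adjusted p = 0.918 each), with Iglc1 at 0.58 ± 0.40, Ighm at 0.29 ± 0.19, Dntt at 0.28 ± 0.22, Igll1 at 0.30 ± 0.30 and Cd79a at 0.06 ± 0.26. No gene was called (0%), Igkc and Jchain were the 2 members with an unadjusted p under 0.05, beside 3.16% of all genes, and no member separated the mice of the 2 genotypes fully, beside 0.101% of all genes above and 0.176% below. Without mouse 691 the antibody median was 0.23. Without mice 686 and 688, the medians were 0.10, -0.01, -0.18 and 0.76. With the marker covariates 33 of 33 members were above 0, with medians of 0.24, 0.29, 0.35 and 0.69 and none called.

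The ratio of Jchain to Cd79a varied more between mice than between the limbs of a mouse. It was 2.73 and 2.57 in the non-loaded and loaded ulnae of CKO mouse 691, 2.49 and 2.64 in wildtype mouse 699, 1.79 and 2.79 in wildtype mouse 692, and 1.95 and 1.91 in CKO mouse 693. By the mean of both limbs it was lowest in wildtype mouse 687, at 0.598 and 0.550, and among CKO mice in mouse 688, at 0.757 and 0.948, so both genotypes had high and low mice. The lowest single value, 0.468, was that of the loaded ulna of wildtype mouse 685, whose non-loaded ulna was at 0.993, the widest limb difference of the 11 mice (1.08 in log2). The spread of the log2 ratio, measured as for Rag1 and Ighd, was 0.791 (SD) between mouse means and 0.314 between limbs. For Igkc against Cd79a it was 0.674 and 0.212. The neutrophil score, averaged over limbs, was also highest in mice 699, 692 and 691 (1.26, 0.59 and 0.56), and its part in the ratio was not tested.

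Other genes of B cell biology, outside the 33, gave no calls in any of the 6 comparisons. Of 14 genes of receptor signalling 13 were below 0 for loading in CKO mice (median -0.51). Of 13 transcription factors 11 were below 0 (median -0.35; Ikzf3 -0.63 ± 0.34), as were 8 of 8 genes of antigen presentation (median -0.52; H2-DMa -0.47 ± 0.22). Of 12 plasma cell genes tested, of 14 listed, all were below 0 (median -0.59; Tnfrsf13b, a receptor for B cell survival factors, -0.66 ± 0.26). In CKO against wildtype non-loaded ulnae 10 of those 12 were above 0 (median 0.58), led by Derl3, a protein of the secretory pathway, at 1.02 ± 0.33. The 10 genes of the marrow niche, among them Il7 and Cxcl12, had medians of -0.29 for loading in CKO and -0.01 in wildtype mice.

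Across the 11 mice the limb difference of Cd79a went with that of marker scores. Against 12 muscle genes Pearson's r was -0.839 (permutation p = 0.00354, adjusted over 3 relations p = 0.00531) and Spearman's rho -0.755 (permutation p = 0.0101, adjusted p = 0.0151). Against 12 neutrophil genes r was 0.847 (permutation p = 0.00012, adjusted p = 0.00036) and rho 0.855 (permutation p = 0.00178, adjusted p = 0.00534), and against 12 erythroid genes r was 0.657 (permutation p = 0.016, adjusted p = 0.016) and rho 0.564 (permutation p = 0.0766, adjusted p = 0.0766). Without the 2 mice farthest from the median of the x measure, 9 mice over a narrower range were left. For muscle r was -0.636 (without 691 and 694, exact permutation p = 0.0624, adjusted p = 0.0935). For neutrophil genes r was 0.833 (without 691 and 699, exact permutation p = 0.00499, adjusted p = 0.015). For erythroid genes r was 0.518 (without 691 and 699, exact permutation p = 0.151, adjusted p = 0.151). Only the neutrophil r kept an adjusted p under 0.05. No rho did (permutation, adjusted p = 0.199 for muscle, 0.0765 for neutrophil and 0.521 for erythroid genes). Without mice 686 and 688 r was -0.857, 0.867 and 0.754 in that order. The tests are two-sided, and all scores are read as shares of the same libraries. Whether muscle or marrow content accounts for the Cd79a values was not tested.

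**Figure D5:**
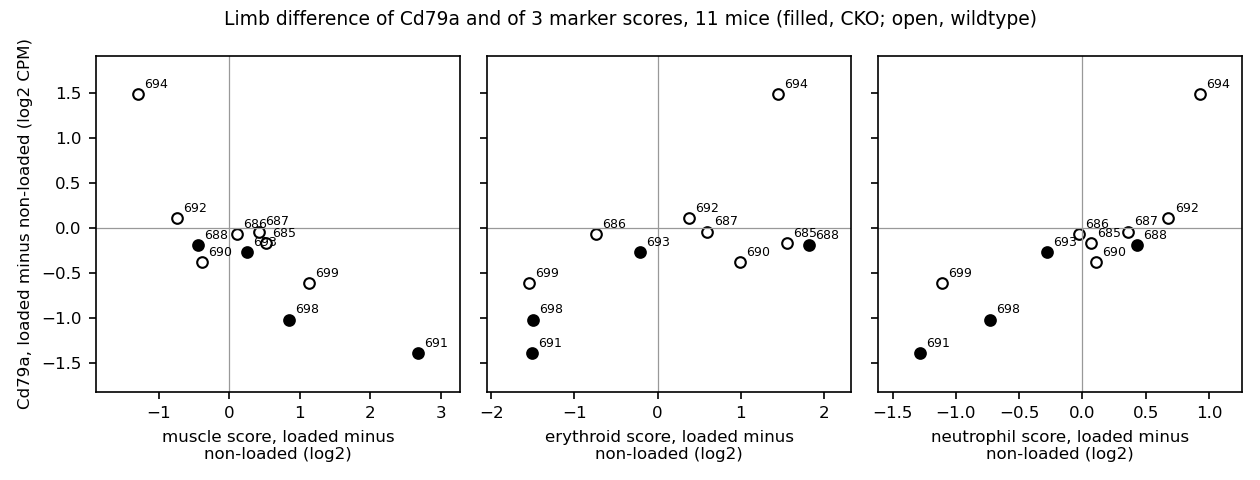
Each point is a mouse, with the loaded minus non-loaded difference of a marker score on the x axis (log2) and that of Cd79a on the y axis (log2 CPM); filled points are CKO, open points wildtype. Mice 691, 698 and 699, low in Cd79a, lie at high muscle and low neutrophil differences, and mouse 694, at 1.49, at the opposite corner.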

How the data were processed

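RNA of 22 ulnae from 11 mice was sequenced. The authors deposited 1 table per library of estimated counts per gene, made with STAR and RSEM on GRCm38 per the submitters' processing notes; versions, annotation and strand setting: not given in the sources used here. Estimated counts were rounded to whole numbers. Groups came from the labels. The 33 members and all gene lists were chosen with earlier results of these data known.

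Genes with low counts were removed (filterByExpr), libraries were scaled by TMM, and edgeR 4.0.16 (R 4.3.3) quasi-likelihood tests were fitted over 18793 genes with 4 group means (18 residual degrees of freedom), or over 19962 genes with both limbs summed per mouse (9). Benjamini-Hochberg adjustment ran over all genes tested, with a threshold of 0.05. Log2 CPM used a prior count of 2. A score is the mean over a list of log2 CPM minus each gene's mean over 22 libraries. Named in each comparison were Cd79a and the 6 members with the smallest p-values, while per-library values follow a fixed list of members. RPKM used exon lengths of GENCODE M21 gene models.

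Same-numbered libraries are limbs of 1 animal, so the numbers pair the libraries; the correlation of their deviations from group means ran from -0.256 to 0.415 over the mice. Within groups no pair of libraries was alike within sampling noise (54 pairs, chi-square per gene 26.3 to 521). Totals of 21999891 to 42833729 counts gave at least 23 counts for every member in every library. The fit was tested on simulated data: for loading in CKO mice (18454 genes) it recovered 40% of 2-fold and 100% of 4-fold changes, and for loading in wildtype mice (18483 genes) 80% of 2-fold changes. For the difference between genotypes in the response to loading (18463 genes) it recovered 18% of 2-fold and 98% of 4-fold changes. The simulated counts had the same dispersion for all genes and no variation shared between genes, so recovery for the members may be lower. Alternatives were DESeq2 1.42.0, limma 3.58.1 voom, RLE and upper-quartile scaling, no count filter, marker covariates, a mouse block, leaving out mice, and summed lambda constant genes, the last added after seeing the data.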

Additional observations from a re-analysis of the deposited data

Results flagged for a closer look

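Among 96 groups of values examined, 5 held a sample far from the others of its group, and chance alone gives about 1 in 20, or 4.8. Vpreb1 in the wildtype non-loaded ulna of mouse 692 was at 0.904 CPM, with the next library at 2.86 CPM. Dntt in the CKO loaded ulna of mouse 698 was at 5.23 CPM, with the next at 11.7 CPM. In the same ulna the progenitor score minus the mature score was -0.16, with the next at 0.29. Among wildtype mice, the limb difference of Cd79a was 1.49 in log2 in mouse 694, with the next at 0.11. The limb difference of the mature score was 1.64 in that mouse, with the next at 0.23.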

How the results depend on the processing

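No member was called in any of the 6 comparisons under any alternative run, by edgeR, DESeq2 or limma voom; the number of members with an unadjusted p under 0.05 ran from 0 to 13. Over all genes, calls for loading were 1 in wildtype and 3 in CKO mice by edgeR, 11 and 22 by DESeq2, and 34 and 18 by voom. With the mouse as a replicate block, members called stayed at 0, and the medians for loading in CKO mice were -0.46, -0.59, -0.83 and -0.83 (progenitor, core, mature, antibody genes). With muscle and marrow covariates the mature median for loading in CKO mice was -0.44, and -0.45 with the block as well, against -0.80; in the comparison of mice the core median was 0.29 against 0.00 and the mature median 0.35 against -0.03. Cd79a for loading in wildtype mice, 0.06, was 0.00 with the block and covariates together. Leaving out 1 mouse at a time gave it a range of -0.21 to 0.16, Cd37 -0.01 to 0.35, Pax5 -0.03 to 0.33 and Blk -0.05 to 0.32, each lowest without mouse 694. Cd79a between the genotypes' mice ranged from -0.08 (without mouse 692) to 0.17. The Pearson correlation of Cd79a was -0.636 with muscle and 0.518 with erythroid scores without the 2 mice farthest from the median, no longer past the threshold. Spearman's rho with neutrophil scores, 0.75, was not past it there either (permutation, adjusted p = 0.0765). Of 1446 alternative values, 4 medians moved by more than the spread and 2 Pearson correlations lost their call. The spread here is the SD of the role's score, or of its limb difference, between mice or libraries. It is no error of the median. At 0.94 for progenitor genes in CKO loading it was wide enough for a median to change sign and count as unmoved. Among single genes 6 values changed sign, and some medians did too, among them the progenitor median for loading in CKO mice, -0.43, which was 0.07 with covariates and 0.04 with the block as well. With 4 CKO mice, changes of 2-fold could often be missed.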
